A study of Mus musculus with 4 samples.

Results

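Cells sorted from the melanoma tumors of mice given anti–PD-1 alone were compared with those of mice given the isotype control antibody, once after 2 weeks of treatment (long cohort) and once after 1 week (short cohort). The cells were chosen by their hashtag: a cell was kept with 200 to 5000 detected genes and at most 5% mitochondrial unique molecular identifiers (UMIs), and it went to the arm whose hashtag had the most UMIs, at least 3 times those of the next hashtag. The rule gave 3003 cells out of 7503 barcodes and 6625 cells with an arm. In the long cohort 159 were isotype cells and 386 were anti–PD-1 cells, and in the short cohort 744 and 1714. T cells made up a larger share of the anti–PD-1 cells than of the isotype cells in the short cohort and a smaller share in the long cohort. In myeloid cells, 19 of 20 type I interferon–stimulated genes were higher with anti–PD-1 after 2 weeks and 20 of 20 after 1 week. With a hashtag ratio of 2 in place of 3 these counts were 15 and 20. Of the interferon-γ response genes, 21 of 21 were higher after 1 week and 12 of 21 after 2 weeks. Over all measured myeloid genes 49.7% (long) and 50.9% (short) were higher, so the long interferon-γ count lay near that share. After 2 weeks Cxcl9 was below and Cxcl10 above the isotype level. No member of either list passed the edgeR test over both cohorts.

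PD-1, encoded by Pdcd1, is an inhibitory receptor that activated T cells display and that dampens T cell receptor signaling when it meets its ligands PD-L1 (Cd274) or PD-L2 (Pdcd1lg2). Antibodies that block it are used to restore the activity of tumor-reactive T cells, above all CD8 T cells that make interferon-γ and cytotoxic granule proteins. Interferon-γ acts on macrophages and monocytes through transcription factors such as IRF1, which induce guanylate-binding proteins, the T cell–attracting chemokines CXCL9 and CXCL10, MHC molecules and PD-L1 itself. Type I interferons share part of this program and induce antiviral genes of the Ifit, Oas and Isg15 type.

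All mice were wild-type C57BL/6J males, 7 to 8 weeks old, with subcutaneous tumors grown from 300000 cells of YUMMER1.7, a single mouse melanoma line with a high mutation load. From day 7 they received either anti–PD-1 (clone RMP1-14, 10 mg/kg, intraperitoneal) or an isotype IgG1 at an equivalent dose, with tumors taken on day 21 after 4 doses (long) or on day 14 after 2 doses (short). Sorted CD45+ cells (80%) and CD45- cells (20%) were recombined, so the mix of leukocytes and other cells was set by the sort. Each cohort was 1 pooled library, and the mice behind an arm cannot be told apart, so each arm was 1 sample per cohort and the compared pairs numbered 2. Weeks of treatment, doses, tumor day and library all differed between the cohorts, so their parts in a difference between cohorts cannot be told apart. With 2 pairs an exact sign-flip permutation test cannot go below 0.5, and intervals given for shares, levels and ratios cover counting error only. The arms were told apart by these antibody-borne oligonucleotides, shown because every comparison rests on them.
Isotype hashtag: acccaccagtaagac
anti–PD-1 hashtag: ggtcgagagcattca

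The hashtags separated the anti–PD-1 cells better than the isotype cells. The median cell of the long isotype arm had 920 UMIs of its own hashtag against 195 of the next, a ratio of 4.41, and 100 of its 159 cells (62.9%) had a ratio between 3 and 5. In the short isotype arm the median ratio was 8.45, with 110 cells (14.8%) between 3 and 5. The anti–PD-1 arms had median ratios of 29.4 and 32.9, with 11 cells (2.85%) and 50 cells (2.92%) in that range. The long isotype arm thus stood apart, and the shares of the T gate and the interferon lists are given below also with the cells that HTODemux called: 204 isotype and 319 anti–PD-1 cells in the long cohort, against 745 and 1370 in the short cohort. The 2 cohorts shared 20 cell barcodes, 6 of them among the compared cells.

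In total 1275060 UMIs were counted in the long isotype arm, 2853603 in the long anti–PD-1 arm, 5106759 in the short isotype arm and 10347930 in the short anti–PD-1 arm. The median cell had 7771, 6258.5, 6385.5 and 5663.5 UMIs in the same order. Over all cells the long isotype arm had the fewest UMIs and so the widest counting error, and in the T gate the short isotype arm did, with 154634 UMIs. Ptprc, which encodes the leukocyte antigen CD45, had a UMI in 89.9% of the isotype and 83.9% of the anti–PD-1 cells in the long cohort, against 85.9% and 94.2% in the short cohort. When every cell was thinned to 2000 UMIs, which left out 12, 42, 102 and 193 cells, the shares were 57.8% and 64.8% (long) and 70.9% and 82.3% (short), so the order in the long cohort turned with depth. Of 6 melanoma marker genes, Mlana, Dct, Sox10 and Tyrp1 had no UMI in any of the 4 arms, and 1 cell in each short arm had a UMI of a melanoma marker outside the T and myeloid gates. The CD45- fraction was therefore not recognizable as melanoma cells by these genes.

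Cells were then assigned to lineages by marker UMIs: a T gate (at least 1 UMI of Cd3e, a subunit of the T cell receptor complex, and fewer than 3 of Lyz2), a myeloid gate (at least 3 UMIs of the lysozyme gene Lyz2 and none of Cd3e) and cells in neither gate. In the long cohort the T gate held 57 of 159 isotype cells (35.8%; 95% Clopper-Pearson interval, 28.4% to 43.8%) and 77 of 386 anti–PD-1 cells (19.9%; 16.1% to 24.3%). In the short cohort it held 33 of 744 isotype cells (4.44%; 3.07% to 6.17%) and 200 of 1714 anti–PD-1 cells (11.7%; 10.2% to 13.3%). The differences therefore pointed in opposite directions: -15.9 percentage points (95% Newcombe interval, -24.4 to -7.67) after 2 weeks and 7.23 points (4.99 to 9.27) after 1 week. Both directions were also seen in thinned cells (33.3% and 19.2%, then 2.96% and 10.1%), among Ptprc-positive cells (36.4% and 22.2%, then 4.54% and 11.9%) and with HTODemux calls (27.9% and 19.4%, then 4.56% and 13.4%). As a measure of free RNA and of gate overlap, Cd3e had a UMI in 1.79% and 2.22% of cells with at least 3 Lyz2 UMIs in the long cohort, against 0.602% and 0.573% in the short cohort. The median depth was 5767 and 5059 UMIs in the T gate and 9766 and 8862.5 in the myeloid gate (long), and 3843 and 4189.5 against 7308 and 6576 (short).

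The myeloid gate held 34.6% of the isotype and 34.2% of the anti–PD-1 cells in the long cohort, a difference of -0.394 points (-9.32 to 8.09). In the short cohort it held 66.5% and 60.8%, a difference of -5.74 points (-9.78 to -1.59). The long difference was -6.89 points with a hashtag ratio of 2, -6.93 with HTODemux calls and 5.85 with a ratio of 5. Each of these intervals included 0. The short difference was -3.81 points (-8.05 to 0.517) with HTODemux calls. Cells in neither gate made up 28.9% and 45.1% in the long cohort, against 28.6% and 27.2% in the short cohort. Which share was larger in the long anti–PD-1 arm in place of T cells depended on the Lyz2 minimum: with 1 UMI the myeloid difference was 8.42 points (-0.775 to 17.2) and that of neither gate 7.34 points (-1.16 to 15.1), against 16.1 points (7.21 to 24.3) for neither gate with 3 UMIs. The long isotype arm is the one with poor hashtag separation, and 90 further cells whose leading hashtag was isotype were left without an arm; 8 of them met the T gate and 49 the myeloid gate. The part of hashtag loss in the T share was not tested.

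**Figure D1:**
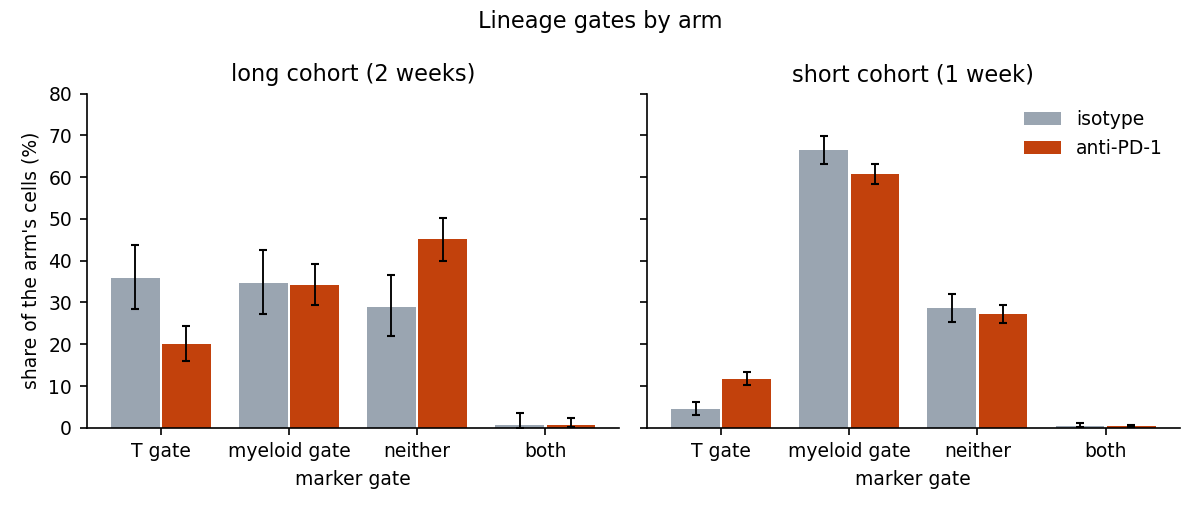
Share of each arm's cells (%, vertical axis) in the T gate, the myeloid gate, neither and both, with isotype in gray and anti–PD-1 in red, in the long (left) and short (right) cohort. Bars are shares and lines are 95% Clopper-Pearson intervals; the T gate share was 35.8% and 19.9% in the long cohort, against 4.44% and 11.7% in the short cohort.

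The T gate also differed in its makeup. CD8 T cells, which had a UMI of Cd8a or Cd8b1, were 54 of 57 isotype (94.7%) and 64 of 77 anti–PD-1 (83.1%) cells of the gate in the long cohort, against 16 of 33 (48.5%) and 137 of 200 (68.5%) in the short cohort. The differences were -11.6 points (-22.1 to -0.289) and 20.0 points (2.38 to 37.1), and in thinned cells -10.5 points (-23.6 to 4.19) and 28.5 points (5.55 to 48.6). With a hashtag ratio of 5 they were -8.59 points (-19.9 to 8.68) and 12.8 points (-5.38 to 32.0). With a Lyz2 minimum of 1 the long difference was -10.8 points (-21.6 to 1.06). With HTODemux calls both intervals left out 0. Of all cells, CD8 T cells made up 34.0% and 16.6% in the long cohort, against 2.15% and 7.99% in the short cohort. The same genes had a UMI in 0.808% and 0.576% of the short myeloid cells and in none of the 55 and 132 long myeloid cells, which allows shares of up to 5.45% and 2.27% (3 counts of the total).

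CD4 cells without a CD8 UMI were 13 of 33 isotype and 14 of 200 anti–PD-1 cells of the short T gate (39.4% and 7%), a difference of -32.4 points (-49.5 to -17.0). Cells with a UMI of Foxp3, the transcription factor that defines regulatory T cells, were 5 of 33 (15.2%) and 10 of 200 (5%); in thinned cells the shares were 5.26% and 3.92%. In the long T gate CD4 cells were 2 of 57 and 6 of 77, and Foxp3-positive cells 1 of 57 and 3 of 77. The isotype arm of the short cohort was thus the only one of the 4 with a large CD4 share, and it rests on 33 cells. Cd4 had a UMI in at most 0.192% and Foxp3 in at most 1.82% of the myeloid cells of an arm.

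Among myeloid cells, those with at least 3 UMIs of Ly6c2, a surface marker of classical monocytes, were 74.5% of the isotype and 69.7% of the anti–PD-1 cells in the long cohort, a difference of -4.85 points (-17.6 to 9.87). In the short cohort they were 52.5% and 76.7%, a difference of 24.2 points (19.0 to 29.2), and 32.1% and 59.0% after thinning. Cells with at least 3 UMIs of the complement C1q genes, which mark macrophages, were 29.1% and 31.8% in the long cohort, against 24.4% and 19.3% in the short cohort (-5.15 points; -9.74 to -0.785). Cells with at least 3 UMIs of the neutrophil genes S100a8 and S100a9 were 5.45% and 3.79% in the long cohort, against 6.06% and 1.06% in the short cohort (-5.005 points; -7.51 to -3.04). After thinning the short differences were -3.87 points (-8.39 to 0.315) for C1q and -3.68 points (-6.08 to -1.99) for S100a8/S100a9. The share of Ly6c2 has no usable background here, since T cells can carry the gene too and B cells outside both gates numbered 1 and 17 in the short arms. The short anti–PD-1 arm held fewer S100a8/S100a9-high cells than its isotype arm beyond counting error, while the C1q difference was not detectable at matched depth. In the long cohort none of the 3 intervals left out 0, but the C1q difference depended on the hashtag rule. With a hashtag ratio of 5 the C1q shares were 58.8% (10 of 17 isotype cells) and 31.5%. That difference was -27.3 points (-48.2 to -2.96), against 2.73 points at a ratio of 3. A ratio of 2 gave 24.1% and 33.3% (9.2 points), and HTODemux calls gave 20% and 31.1% (11.1 points). The intervals of the latter differences, at a ratio of 2 and with HTODemux calls, included 0. In the T gate, where they should be lacking, C1q transcripts passed the same minimum in at most 1.75% and S100a8 or S100a9 transcripts in at most 1.30% of the cells of an arm.

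**Figure D2:**
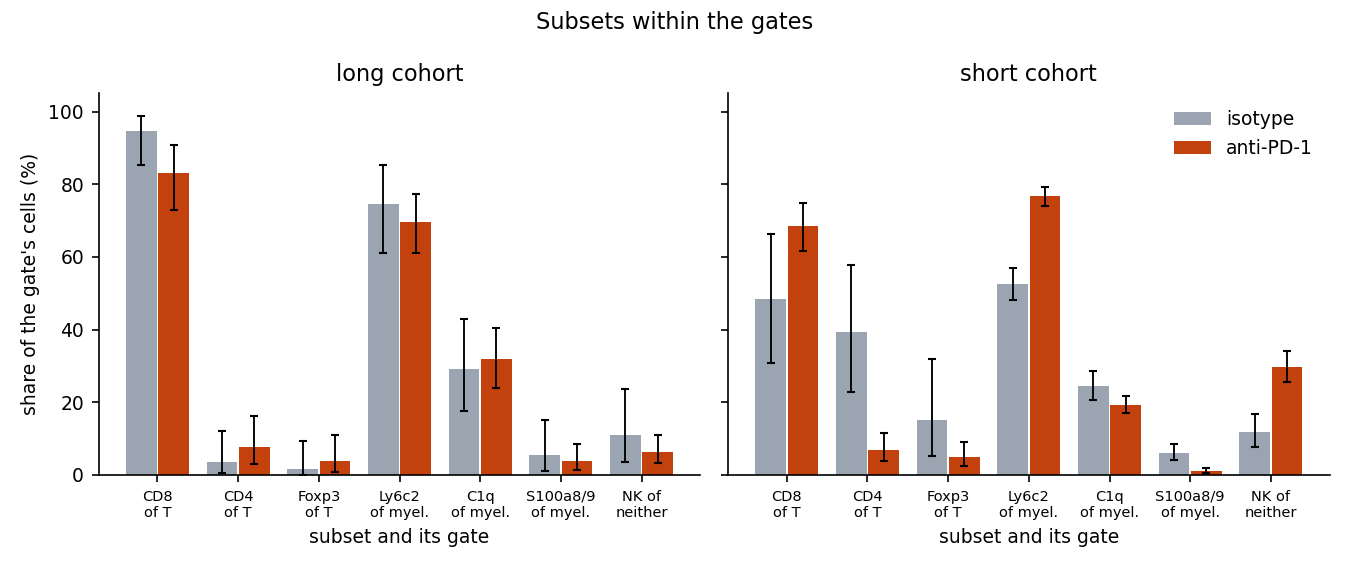
Share (%, vertical axis) of subsets within their gate, isotype in gray and anti–PD-1 in red, with 95% Clopper-Pearson intervals as lines, in the long (left) and short (right) cohort. In the short cohort CD8 cells were 48.5% and 68.5% of the T gate and Ly6c2-high cells 52.5% and 76.7% of the myeloid gate.

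Outside both gates, NK cells were marked by a UMI of Ncr1 or Klrb1c, 2 activating receptor genes. They made up 3.14% of all isotype and 2.85% of all anti–PD-1 cells in the long cohort, against 3.36% and 8.11% in the short cohort, where the difference was 4.75 points (2.79 to 6.50; 2.65% and 6.77% after thinning). The same genes had a UMI in 0 of 55 (up to 5.45%) and 1.52% of the long and in 1.01% and 0.864% of the short myeloid cells. NK cells thus had a larger share with anti–PD-1 in the short cohort, as CD8 T cells did, and not detectably in the long cohort. Cells with a UMI of Cd79a, a B cell receptor subunit, were 1 isotype and 8 anti–PD-1 cells in the long cohort, against 1 and 17 in the short cohort (0.134% and 0.992% of all cells), while Cd79a had a UMI in none of the long and in 0.202% and 0.480% of the short myeloid cells. The isotype share of the short cohort was thus at the background level. Cells with a UMI of Ccr7, the receptor that guides mature dendritic cells to lymph nodes, were 6.92% and 6.48% of all cells in the long cohort, against 4.17% and 1.75% in the short cohort (-2.42 points; -4.18 to -0.994). Fscn1, which encodes an actin-bundling protein of mature dendritic cells, gave 8.18% and 4.40% (long) and 3.09% and 0.642% (short). In the myeloid gate Ccr7 had a UMI in 0 of 55 and 0.758% (long) and in 0.606% and 0.672% of the cells (short), and Fscn1 in 3.64% and 0.758% (long) and in 0.404% and 0.384% (short). Median depth outside both gates was 6960 and 4387.5 UMIs (long) and 3341 and 3371.5 UMIs (short), below that of the myeloid gate. At least 3 UMIs of the fibroblast genes in sum were found in 6 long anti–PD-1 cells outside both gates and in no such cell of the other arms.

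Gene levels were computed from the UMIs summed over the cells of an arm and gate and are given as CPM, the UMIs of a gene scaled to the summed UMIs of that arm and gate. Where a pair of values is given, isotype comes first and anti–PD-1 second. Pdcd1 itself (chr1:94038305-94052553, minus strand, GRCm38), the target of the antibody, stood at 567 CPM with isotype and 437 with anti–PD-1 after 2 weeks, and 259 and 344 after 1 week. The anti–PD-1 to isotype ratio was 0.771 (95% interval, 0.637 to 0.933) in the long and 1.33 (95% interval, 0.954 to 1.896) in the short cohort. A Pdcd1 UMI was found in 87.7% and 75.3% of the T gate's cells (long) and in 57.6% and 51.0% (short), or 75.5% and 54.5% and then 57.9% and 39.2% after thinning. At most 0.758% of an arm's myeloid cells had one. The transcript was thus present in all 4 arms, and the edgeR quasi-likelihood test over both cohorts gave a log2 fold change of -0.00 ± 0.38 (Benjamini-Hochberg adjusted P = 1).

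The other inhibitory receptors did not form 1 pattern. Havcr2, which encodes TIM-3, was 338 and 189 CPM with isotype and anti–PD-1 in the long cohort, against 38.8 and 146 in the short cohort, ratios of 0.5595 (0.426 to 0.733) and 3.75 (1.68 to 10.4). Lag3 was 484 and 517 CPM (long) and 213 and 231 CPM (short), and Tigit 445 and 319.9 (long) and 278 and 204 (short). Ctla4, carried by activated and above all by regulatory T cells, was 372 and 423 CPM in the long cohort, against 1255 and 469.7 in the short cohort, a ratio of 0.374 (0.315 to 0.446) there; in CD8 T cells alone that ratio was 0.854 (0.634 to 1.17). Of the 9 measured genes of this list, 4 were higher with anti–PD-1 in the long cohort, against 5 in the short cohort, with median log2 ratios of -0.21 and 0.11 against 0.04 and 0.04 over all 7865 measured genes, of which 53.3% and 53.4% were higher. List medians use log2 ratios of CPM plus 10 over members with at least 20 UMIs in the 4 arms.

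Most cytotoxic genes were higher with anti–PD-1 after 1 week, and after 2 weeks they were mixed. Gzmb, a granule protease that triggers death of target cells, was 1335 CPM with isotype and 1471 with anti–PD-1 after 2 weeks, and 569 and 1062 after 1 week. Prf1, the pore-forming perforin, was 650.4 and 548 CPM (long) and 51.7 and 209 CPM (short), and Nkg7, a granule membrane protein, 2968 and 2745 (long) and 1261 and 3049 (short). The ratios in the short cohort were 1.87 (1.499 to 2.35), 4.04 (2.01 to 9.498) and 2.42 (2.09 to 2.81), against 1.102 (0.984 to 1.24), 0.843 (0.708 to 1.004) and 0.925 (0.855 to 1.001) in the long cohort. The cytotoxic list had a median log2 ratio of -0.24 in the long cohort, with 5 of 13 genes higher (3 of them at least 1.5-fold), and of 1.27 in the short cohort, with 11 of 13 higher. The granzyme genes Gzmc, Gzmd and Gzme stood above isotype in the long cohort, with ratios of 2.55 (1.41 to 4.88), 2.87 (1.499 to 5.96) and 2.25 (1.18 to 4.59); Gzmc was 97 and 38.3 CPM in the short cohort. Restricted to CD8 T cells, which leaves out the CD4 cells without a CD8 UMI, the medians were -0.01 and 1.08. A few Cd4 UMIs remained among these cells, 0 and 2 (long) and 3 and 0 (short). The 5 NK markers, whose cells also express cytotoxic genes, summed to 224 and 191 CPM in the long and to 90.5 and 244 CPM in the short T gate, and their part in these levels was not tested. In UMIs the sums were 86 and 98 (long) and 14 and 223 (short). The marker Klre1 had 77 and 92 (long) and 14 and 136 (short) UMIs in CD8 T cells, so the sums do not mark NK cells alone.

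Ifng, the gene of interferon-γ, was 320.0 CPM with isotype and 399.9 with anti–PD-1 after 2 weeks, and 103 and 258 after 1 week, ratios of 1.25 (0.995 to 1.58) and 2.497 (1.51 to 4.44). It stood higher with anti–PD-1 in both pairs, although the interval in the long cohort reached just below 1, and edgeR gave an adjusted P of 1. In CD8 T cells alone the ratios were 1.43 (1.14 to 1.81) and 2.43 (1.29 to 5.14). Ccl5 (chr11:83525778-83530518, minus strand), a chemokine that draws T cells and myeloid cells, was 3991 and 3379 CPM in the long cohort, against 634 and 5027 in the short cohort, a ratio of 0.847 (0.79 to 0.908) and then 7.93 (6.49 to 9.79). Ccl3 and Ccl4, chemokines of activated T cells, went the same way: Ccl4 was 4261 and 2271 CPM (long) and 304 and 2301 CPM (short). Xcl1, which attracts cross-presenting dendritic cells, was 31.2 and 68.3 (long) and 38.8 and 334 (short) CPM, ratios of 2.19 (1.11 to 4.63) and 8.61 (3.91 to 23.6). Its UMIs lay in 3 and 7 long cells and in 2 and 32 short cells, and in CD8 T cells of the short cohort the ratio was 1.19 (0.517 to 3.38), where 61 of the 305 anti–PD-1 UMIs lay. The 8 measured genes of the cytokine list had medians of 0.05 and 2.01.

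**Figure D3:**
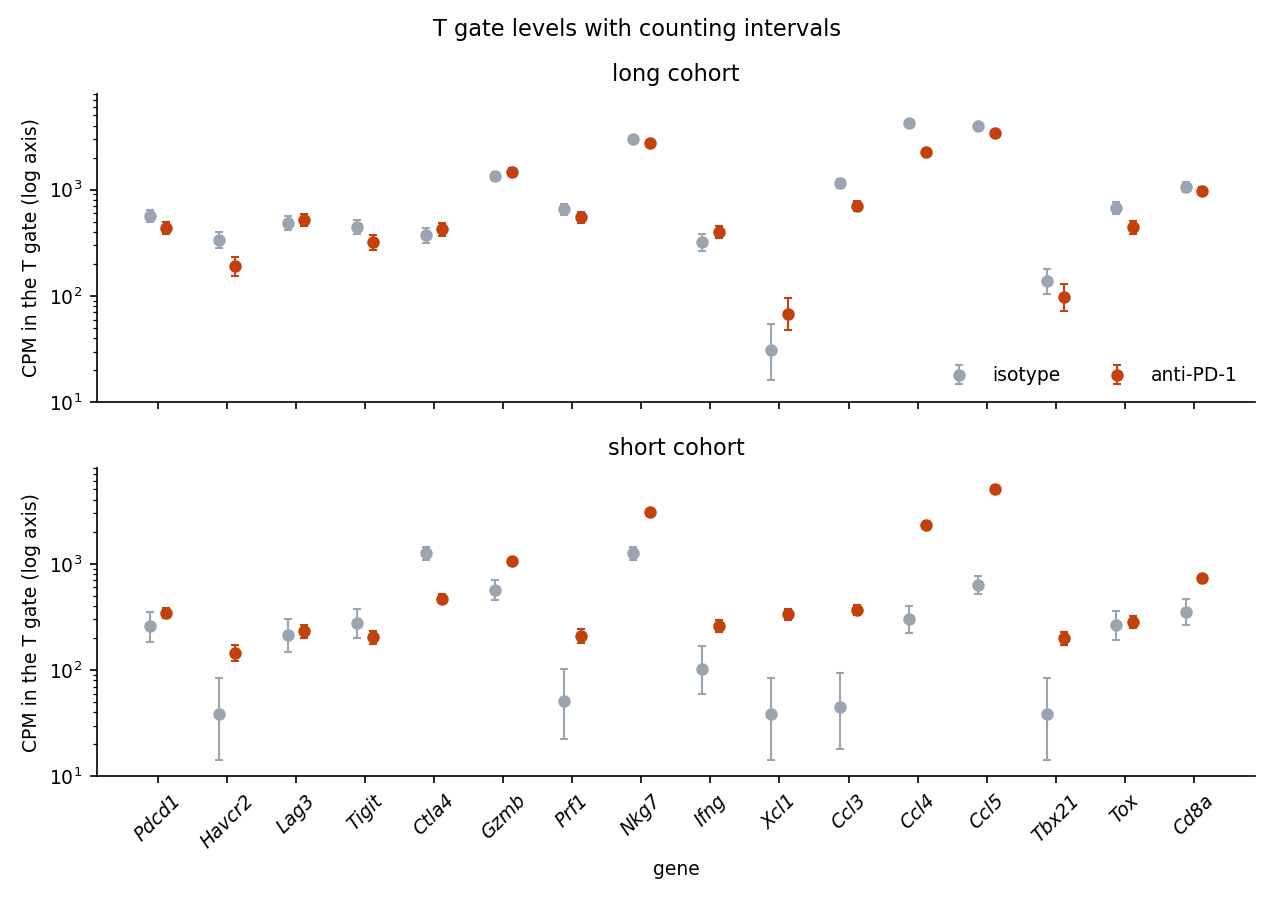
Level of 16 genes in the T gate (CPM on a log axis) with isotype in gray and anti–PD-1 in red; points are the level of an arm and lines its exact 95% Poisson interval, for the long (top) and short (bottom) cohort. Ccl5 was 3991 and 3379 CPM in the long and 634 and 5027 CPM in the short cohort.

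Transcription factors and memory genes varied from gene to gene. Tbx21, the TH1 and effector regulator T-bet, was 138 and 97.5 CPM (long) and 38.8 and 199 CPM (short). Tox, linked to exhaustion, was 674 and 441 (long) and 265 and 284 (short). Tcf7, the factor of stem-like T cells, was 5.203 and 40.97 CPM in the long cohort, from 2 and 21 UMIs, and 58.2 and 74.5 in the short cohort. The state factor list had medians of -0.25 and 0.39 (6 and 11 of 15 genes higher), and the naive and memory list 0.69 and -0.20 (8 and 3 of 9 higher). Regulatory T cell genes had opposite medians, with 6 of 8 higher and a median of 0.26 after 2 weeks and 1 of 8 higher and a median of -1.55 after 1 week. Foxp3 was 5.203 and 23.4 (long) and 136 and 35.04 (short) CPM, and Il2ra, the IL-2 receptor α chain, 52.03 and 31.2 (long) and 304 and 70.1 (short). The short isotype arm also had the large CD4 share, whose part in this list was not tested. The list's median among CD8 T cells of the short cohort was -0.66. Among the remaining lists of the T gate, interferon-γ response genes had medians of -0.08 and 0.53, type I interferon–stimulated genes -0.38 and 0.35, MHC class I genes 0.01 and 0.10, and T cell receptor complex genes 0.00 and 0.18. Chemokine receptors had medians of 0.68 and 0.00, costimulatory receptors -0.05 and -0.43, cell cycle genes 0.40 and -0.38, glycolysis and hypoxia genes 0.23 and -0.63, and immediate early and stress genes 0.47 and 0.38. Among CD8 T cells of the short cohort the costimulatory median was 0.47 and the cell cycle median 0.66, opposite in sign to those of the whole gate. The isotype arm there held 16 cells and 76983 UMIs. Cell cycle genes such as Birc5, Ccna2 and Rrm2 had no isotype UMI there, so the sign of that median is uncertain.

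Across both cohorts, edgeR called 12 of 5712 genes in the T gate (0.21%), 10 higher and 2 lower with anti–PD-1, at an adjusted P below 0.05. The fit used 8 arm sums, the isotype, anti–PD-1, anti-MIF and combined arms of both cohorts, with cohort as a block and 3 residual degrees of freedom, so the P values measure the spread between arms and cohorts and not between mice. No member of the gene lists fixed for the T gate was among them. The called genes that rose were MHC class II genes (H2-Aa, H2-Eb1, H2-Ab1 and the invariant chain Cd74), 3 genes known from NK cells (Klra7, Tyrobp and Cd7, the last also from T cells), the linker histone gene Hist1h1b and 2 T cell receptor variable segments. Both genes that fell were variable segments too, which reflect which clones were sampled and are not named here.

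H2-Aa, the class II α chain that presents peptides to CD4 T cells, stood at 13.01 CPM with isotype and 297 with anti–PD-1 after 2 weeks, and 6.47 and 184 after 1 week, and its log2 fold change was 4.60 ± 0.48 (edgeR adjusted P = 4.51e-04). A single anti–PD-1 cell held 134 of its 152 UMIs in the long cohort, and in the short cohort a single cell held 74 of 168. Cd74 was 67.6 CPM with isotype and 874 with anti–PD-1 after 2 weeks, and 90.5 and 499 after 1 week, a log2 fold change of 3.19 ± 0.38 (edgeR adjusted P = 9.94e-04), with 364 of 448 and 155 of 456 UMIs in 1 cell. These levels thus rested on very few cells. Without the T gate cells that had at least 3 UMIs of H2-Aa, H2-Ab1 and H2-Eb1 in sum (leaving 56, 73, 33 and 194 cells), edgeR called 4 genes; class II genes chose the cells left out, so no class II value is read from that fit. Markers of mature dendritic cells (Ccr7, Fscn1 and Ccl22) summed to 41.6 and 386 CPM in the long T gate and to 168 and 36.1 in the short one, and macrophage markers to 33.8 and 27.3 and then to 0 and 98.5; their part in the result was not tested.

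Klra7, an inhibitory Ly49 receptor of NK cells whose family has closely similar members, so that its counts are uncertain, had no UMI in either isotype arm and 42.9 and 95.3 CPM with anti–PD-1, from 2 long and 23 short cells. Against a floor of 3 UMIs per arm this was at least 5.499-fold higher in the long and at least 4.91-fold higher in the short cohort (edgeR adjusted P = 0.013). Tyrobp, the adaptor DAP12 of NK and myeloid receptors, was 2.601 and 81.9 CPM (long) and 12.9 and 244 CPM (short), in 1 and 12 long cells and in 2 and 31 short cells (log2 fold change 4.54 ± 0.81, edgeR adjusted P = 0.0238). Cd7 was 7.804 and 79.99 (long) and 12.9 and 94.2 (short) CPM (edgeR adjusted P = 0.0208). The most abundant NK marker in the T gate was Klre1, and the part of NK cells in the called genes was not tested. Hist1h1b, a histone gene used in S phase, rose from 109 to 371 CPM in the long and from 25.9 to 163 in the short cohort (log2 fold change 1.97 ± 0.32, edgeR adjusted P = 0.013). Mki67, a proliferation marker, was 151 and 218 (long) and 129 and 161 (short) CPM and was not called. No gene was called when a hashtag ratio of 5 was required or when the cohort block was left out, and 3 were called with HTODemux cells or by DESeq2. With either pair left out, the 12 genes called in the main fit kept their direction. Fewer of them were called without the long pair than without the short pair.

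By size alone, 49 of 2959 genes with at least 100 UMIs in the T gate (1.66%) were at least 1.5-fold higher with anti–PD-1 in both cohorts and 20 (0.676%) at least 1.5-fold lower; 31 and 36 genes passed in opposite directions. St6galnac3, a sialyltransferase gene, had the largest shared lower level, at 403 and 199 (long) and 317 and 154 (short) CPM, a ratio of 0.493 (0.381 to 0.638) and then 0.487 (0.3497 to 0.689). In CD8 T cells alone its ratios were 0.531 (0.405 to 0.695) and 1.102 (0.574 to 2.37), so the lower level in the short cohort was not seen there. Itgav, the integrin αV chain, was 349 and 224 (long) and 466 and 249 (short) CPM. Ifi30, a lysosomal reductase of antigen processing, was 26.01 and 140.5 (long) and 0 and 62.4 (short) CPM. Lsm1, a factor of mRNA decay, was 20.8 and 85.8 (long) and 19.4 and 55.8 (short) CPM. None of these 4 genes passed the edgeR threshold, with adjusted P values from 0.0678 to 1.

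In myeloid cells the interferon lists held the genes described next. Many such genes carry interferon response elements near their start, and the stretches below are printed for 5 genes of the interferon lists because the letters can be seen there. In the 250 bases before RefSeq transcription starts (GRCm38.p6), the letters GAAA, any 2 bases and GAAA again, an interferon-stimulated response element–like motif read on either strand, were found for 9 of 18 type I interferon–stimulated genes (50%) and 12 of 15 interferon-γ response genes (80%) with a promoter in the table, against 936 of all 27025 genes (3.46%). The letters TTC, any 3 bases and GAA, a γ-activated-site–like motif that may overlap the former, were found for 4 of 18 (22.2%), 7 of 15 (46.7%) and 8.13% of all genes. A match describes the letters and is not a binding site. Capitals mark the matches, and the sequences run 5′ to 3′ on the strand of the gene.
Cxcl10, chr5:92349083-92349112, minus strand: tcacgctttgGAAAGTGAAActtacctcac
Isg15, chr4:156200865-156200906, minus strand: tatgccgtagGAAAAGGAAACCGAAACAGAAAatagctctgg
Ifit1, chr19:34640775-34640823, plus strand: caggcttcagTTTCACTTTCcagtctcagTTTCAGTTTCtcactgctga
Ifit3, chr19:34583363-34583426, plus strand: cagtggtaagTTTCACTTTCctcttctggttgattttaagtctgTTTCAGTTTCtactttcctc
Igtp, chr11:58199501-58199541, plus strand: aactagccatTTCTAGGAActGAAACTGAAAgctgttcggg

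Type I interferon–stimulated genes were higher with anti–PD-1 in both cohorts. Of 20 measured genes, 19 were higher after 2 weeks and 20 after 1 week, with median log2 ratios of 0.48 and 0.61, while the median over all 10717 measured genes was 0.00 in each cohort. Ifit1, an inhibitor of translation of viral RNA, was 59.1 CPM with isotype and 260.5 with anti–PD-1 after 2 weeks, and 79.7 and 103 after 1 week, ratios of 4.41 (3.08 to 6.52) and 1.296 (1.13 to 1.48). Ifit2 was 233 and 600.3 CPM (long) and 172 and 271 CPM (short), and Ifit3 229 and 441 (long) and 123 and 201 (short). Isg15, a ubiquitin-like modifier (chr4:156199424-156200818, minus strand), was 1358 and 1789.5 CPM in the long cohort, against 794 and 1787 in the short cohort, ratios of 1.32 (1.21 to 1.43) and 2.25 (2.16 to 2.34). Ifit1 and Ifit2 thus stood further above isotype after 2 weeks and Isg15 after 1 week. With HTODemux cells 16 and 20 of 20 genes were higher, with medians of 0.35 and 0.65, and with a hashtag ratio of 2 they were 15 and 20 of 20, with medians of 0.20 and 0.62. Within Ly6c2-high cells 20 and 16 of 20 were higher, with medians of 0.69 and 0.46. edgeR called none of the list's members.

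Interferon-γ response genes parted the cohorts. Cxcl9 (chr5:92321347-92328079, minus strand), a ligand of CXCR3, a chemokine receptor of T cells, was 412 CPM with isotype and 333 with anti–PD-1 after 2 weeks, and 93.5 and 803 after 1 week. Its ratio was 0.808 (0.686 to 0.953) after 2 weeks and 8.58 (7.72 to 9.57) after 1 week, and in the short cohort 43 of 495 isotype cells and 388 of 1042 anti–PD-1 cells had a UMI. Cxcl10 (chr5:92346638-92348889, minus strand), a second CXCR3 ligand, was above isotype in both cohorts, at 873 and 1445 CPM (long) and 708 and 1502 CPM (short), ratios of 1.65 (1.496 to 1.83) and 2.12 (2.03 to 2.21). In the long cohort the intervals of these neighboring genes lay on opposite sides of 1. Gbp2, a GTPase of cell-autonomous immunity, was 453 and 443 (long) and 189 and 817 (short) CPM, Iigp1 69.8 and 68.9 (long) and 16.7 and 149 (short) CPM, and Igtp 113 and 119 (long) and 42.8 and 147 (short) CPM. Irf1, a transcription factor of the pathway, was 234 and 225 CPM (long) and 139.6 and 435 CPM (short). Socs1, a feedback inhibitor, was 55.5 and 93.8 (long) and 41.8 and 157 (short) CPM, and Gbp4 55.5 and 96.97 (long) and 26.4 and 111 (short), so both stood above isotype in each pair. Gbp2b was lower with anti–PD-1 in the long cohort (34 and 13.6 CPM) and higher in the short cohort (1.79 and 16.5 CPM).

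Over the whole list, 12 of 21 measured interferon-γ genes were higher after 2 weeks, with a median of 0.05, and 21 of 21 after 1 week, with a median of 1.35. Of all measured myeloid genes, 49.7% and 50.9% were higher, so that the long count lay near the share of all genes. In the long cohort the direction of single genes was often within counting error, as for the ratios of Gbp2, 0.979 (0.842 to 1.14), and Irf1, 0.961 (0.778 to 1.19). Within Ly6c2-high cells the medians were 0.29 and 1.29, with 17 and 21 genes higher, and with HTODemux cells 0.01 and 1.48. MHC class I and peptide-loading genes went along, with 10 of 19 higher (median 0.07) in the long cohort, against 19 of 19 (median 0.57) in the short cohort. B2m, the class I light chain, was 3676 and 3412 (long) and 2852 and 4018 (short) CPM, the peptide transporter gene Tap1 206 and 232 (long) and 128 and 240.1 (short), and the class I transactivator gene Nlrc5 80.5 and 80.1 (long) and 71.5 and 142 (short). None of these members passed the edgeR test, in which 0 of 9733 myeloid genes (0%) were called, 443 genes had an unadjusted P below 0.05 and DESeq2 called 0. The test asked for an effect shared by both cohorts, and it called 45 genes when only the 4 isotype and anti–PD-1 sums were fitted and 52 without the long pair.

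**Figure D4:**
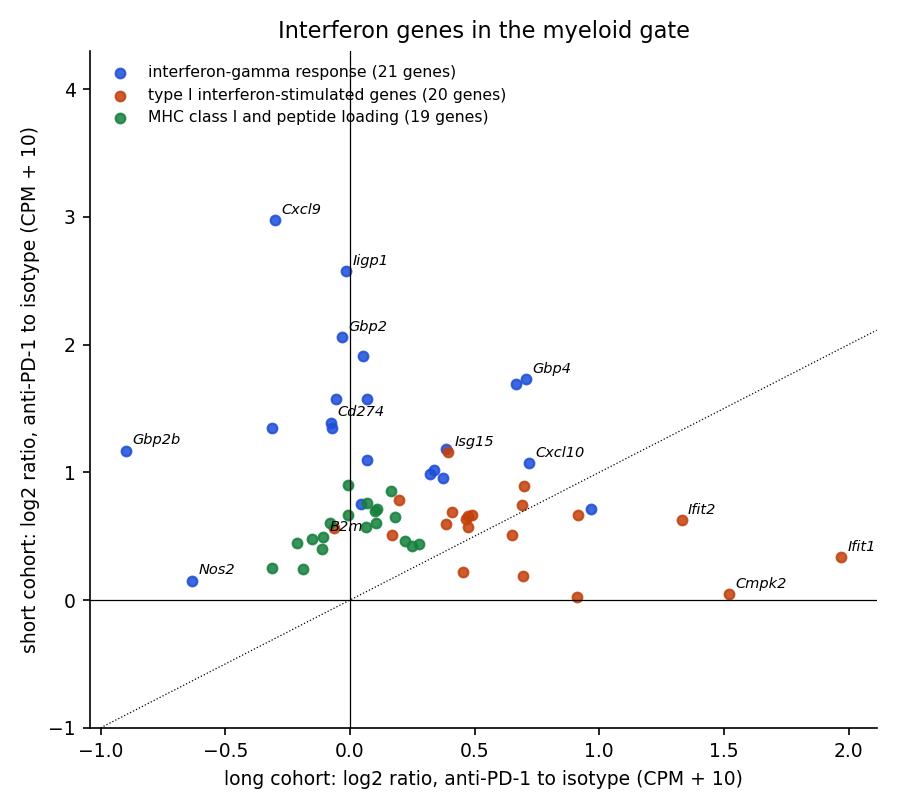
Log2 ratio of anti–PD-1 to isotype (CPM plus 10) in the myeloid gate, long cohort on the horizontal and short cohort on the vertical axis, 1 point per gene, with interferon-γ response genes in blue, type I interferon–stimulated genes in red and MHC class I genes in green; the dotted line marks equal ratios. The blue points lie mostly above the dotted line (medians 0.05 and 1.35), while the red points lie to the right of 0 with 1 exception among the 20 genes (medians 0.48 and 0.61).

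The ligands of PD-1 are themselves interferon-inducible. Cd274, which encodes PD-L1 (chr19:29367455-29388095, plus strand), was 301 CPM with isotype and 284 with anti–PD-1 after 2 weeks, and 144 and 394 after 1 week, ratios of 0.946 (0.785 to 1.14) and 2.73 (2.49 to 2.995). Pdcd1lg2, which encodes PD-L2, was scarce, at 7.16 and 4.01 (long) and 5.64 and 10.1 (short) CPM. Cd40, a costimulatory receptor of antigen-presenting cells, was 84.1 and 87.4 CPM (long) and 27.2 and 101 CPM (short), whereas Cd80, a ligand of CD28, CTLA-4 and PD-L1, was below isotype in both cohorts, at 84.1 and 36.9 (long) and 156 and 114 (short) CPM. The list of PD-1 ligands and B7 molecules had 2 of 10 genes higher after 2 weeks (median -0.16) and 8 of 10 after 1 week (median 0.20). MHC class II genes had medians of 0.06 and 0.19, and the long median was 0.37 with a hashtag ratio of 2 and 0.41 with HTODemux cells. H2-Aa was 3823 and 3689.7 (long) and 2352 and 2772 (short) CPM and Cd74 10824 and 12071 (long) and 6596 and 7951 (short) CPM.

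Macrophage genes were lower with anti–PD-1 mainly in the short cohort. Apoe, a lipid carrier of macrophages, was 1054 and 950.5 CPM (long) and 1021 and 428 CPM (short), and Trem2, a lipid-sensing receptor, 102 and 90.6 (long) and 126 and 65.01 (short). C1qa, a subunit of complement C1q, was below isotype in both, at 1219 and 803 (long) and 454 and 248 (short) CPM, ratios of 0.659 (0.597 to 0.727) and 0.547 (0.512 to 0.585). Spp1, which encodes the secreted matrix protein osteopontin, was 632 and 283 (long) and 438 and 197 (short) CPM, ratios of 0.448 (0.385 to 0.5205) and 0.449 (0.418 to 0.481). It was below isotype in both pairs, and edgeR gave an adjusted P of 0.959. The C1q and lipid-associated list as a whole had 9 of 16 genes higher in the long cohort (median 0.08) and 4 of 16 in the short cohort (median -0.49). Within Ly6c2-high cells the medians were -0.54 and 0.11, so the direction turned in both cohorts once cells of low Ly6c2 were left out. Fn1 (fibronectin) was 455 and 289 (long) and 756 and 445 (short) CPM and Chil3, a chitinase-like protein of monocytes, 832 and 576 (long) and 680.5 and 396 (short) CPM, both below isotype in each pair.

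Inflammatory cytokine genes of the IL-1 and TNF type had medians of 0.01 and 0.55. Tnf was 50.1 and 45.7 CPM (long) and 14.1 and 65.6 CPM (short), and the IL-1 receptor antagonist gene Il1rn 191 and 192 (long) and 173 and 448 (short), while Il1b was 1426 and 1455 (long) and 2594 and 3157 (short) CPM. Monocyte genes had a median of -0.15 in each cohort, but of -0.48 in the long cohort with a hashtag ratio of 2 and -0.52 with HTODemux cells. Ly6c2 itself was 1947 and 2055 (long) and 1171 and 2411 (short) CPM. The myeloid chemokine list had medians of -0.18 and -0.06, with Ccl5 at 417 and 487 CPM (long) and 59.2 and 280.0 CPM (short), and the suppressive list -0.09 and 0.03. Glycolysis and hypoxia genes stood at 0.10 and 0.01 and immediate early and stress genes at -0.02 and -0.11. Cell cycle genes had a median of 0.61 after 2 weeks (16 of 21 higher) and of -0.25 after 1 week (2 of 21 higher); with a pseudocount of 1 CPM the medians were 1.56 and -0.52. The long value rests on few cells: Mki67 had 2 UMIs in 2 isotype cells and 53 UMIs in 9 anti–PD-1 cells, 30 of them in 1 cell.

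**Figure D5:**
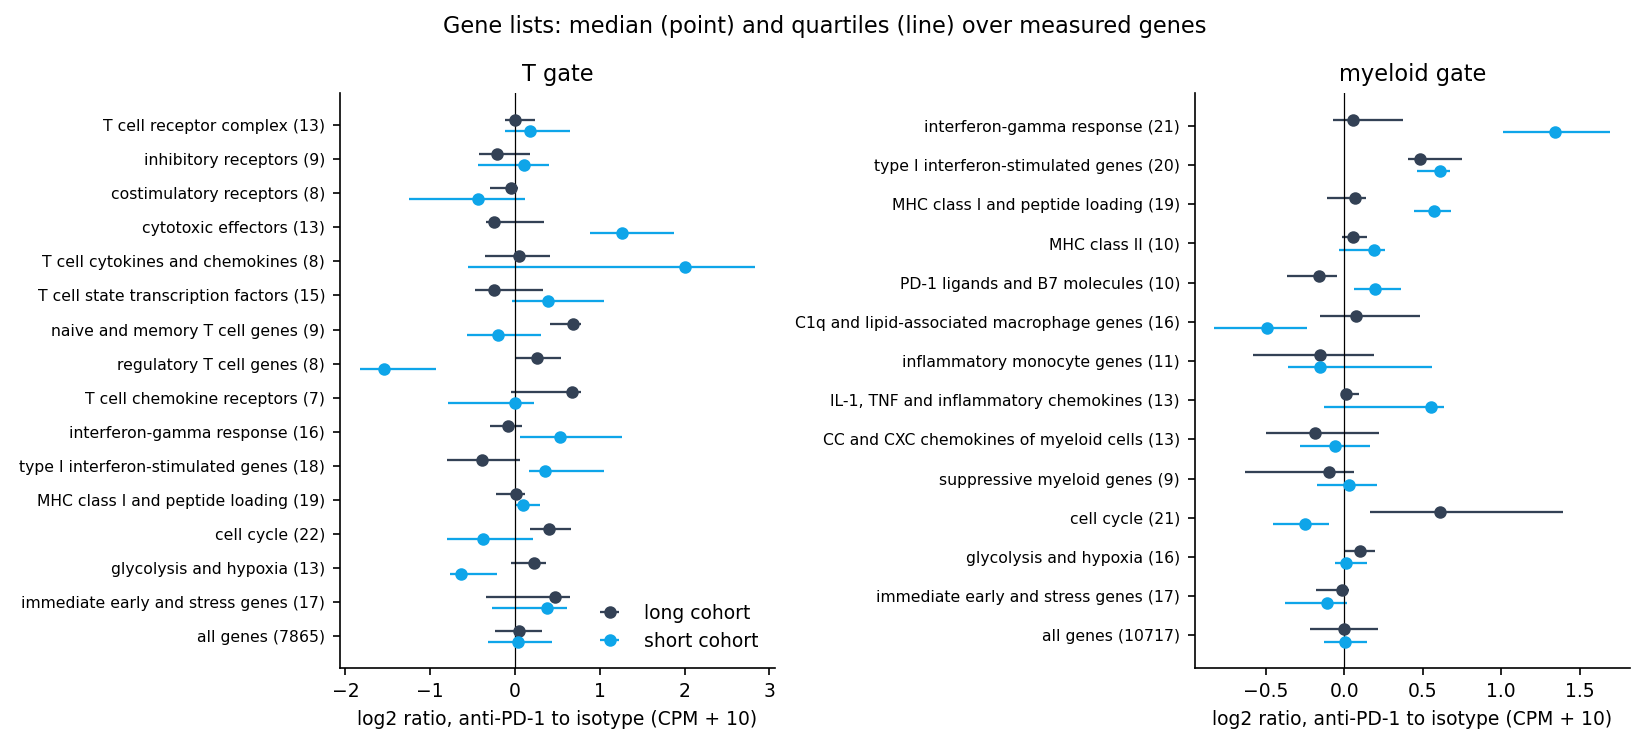
Median log2 ratio of anti–PD-1 to isotype (CPM plus 10, horizontal axis) over the measured genes of each list in the T gate (left) and the myeloid gate (right); points are medians, lines run from the lower to the upper quartile, dark points are the long and blue points the short cohort, and the number of genes is in brackets. Interferon-γ response genes in the myeloid gate had medians of 0.05 and 1.35, and regulatory T cell genes in the T gate 0.26 and -1.55.

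By size, 113 of 7686 myeloid genes (1.47%) were at least 1.5-fold higher with anti–PD-1 in both cohorts and 52 (0.677%) at least 1.5-fold lower, with 74 and 50 passing in opposite directions. Among the 10 with the largest shared higher level were Cxcl10, Gbp4 and Tgtp1 of the interferon-γ list and Ifi208, another interferon-inducible gene, at 25.1 and 57.7 (long) and 17.4 and 38.6 (short) CPM. Cd69, an early activation antigen, was 62.6 and 115 (long) and 37.1 and 78.8 (short) CPM, Fpr2, a formyl peptide receptor, 17.9 and 36.1 (long) and 15.4 and 34.7 (short) CPM, and the zinc exporter gene Slc30a1 5.37 and 18.4 (long) and 18.96 and 54.9 (short) CPM. Aig1 was 19.7 and 48.1 (long) and 36.6 and 72.9 (short) CPM, Lpl (lipoprotein lipase) 7.16 and 18.4 (long) and 4.36 and 15.2 (short), and Mmp13 (a collagenase) 1.79 and 12.02 (long) and 16.7 and 33.7 (short). None of these levels passed the edgeR test.

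The genes with the largest shared lower levels included Lcn2 and S100a8, and enrichment of any cell type's genes among them was not tested. Lcn2 (chr2:32384633-32388252, minus strand), which encodes the iron-scavenging protein lipocalin 2, was 181 CPM with isotype and 22.4 with anti–PD-1 after 2 weeks, and 36.4 and 3.69 after 1 week, ratios of 0.124 (0.0786 to 0.1903) and 0.101 (0.0645 to 0.154). Wfdc21 was 75.2 and 8.82 (long) and 36.6 and 4.51 (short) CPM, S100a8, a subunit of calprotectin, 512 and 253 (long) and 370.2 and 49.7 (short) CPM, and Hspb1, a small heat shock protein gene, 66.2 and 13.6 (long) and 48.7 and 9.15 (short) CPM. S100a8/S100a9-high cells were 3 and 5 cells of the long and 30 and 11 cells of the short myeloid gate, and the 5 neutrophil markers summed to 642 and 544 CPM (long) and to 701 and 193 CPM (short), with S100a8 as the most abundant. In the long cohort S100a9 was 64.4 and 232 CPM, opposite to S100a8 and Lcn2, and over all cells the neutrophil sum was 448 and 1137 CPM there. The part of neutrophils in the lower levels was not tested. Hist1h1c, a linker histone gene, was 100.2 and 56.1 (long) and 72.8 and 37.4 (short) CPM, and the glucocorticoid-inducible factor gene Klf9 16.1 and 4.01 (long) and 32.02 and 16.5 (short) CPM. The remaining 3 genes, Spsb1, Mvb12b and Ampd3, had ratios between 0.256 and 0.4702 in the long cohort, against 0.3896 and 0.436 in the short cohort.

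Over all cells of an arm, gene levels followed the makeup of the arms as well as the levels within a cell type, which cannot be told apart there. T cell receptor complex genes had a median log2 ratio of -0.64 in the long cohort (2 of 13 higher) and of 1.24 in the short cohort (12 of 13 higher), the direction of the T share in each. Pdcd1 was 182 and 89.7 CPM in the long cohort, against 12.7 and 35.1 in the short cohort, so its ratios were 0.493 (0.411 to 0.591) and 2.76 (2.11 to 3.65). Type I interferon–stimulated genes were higher in both, with 20 and 17 of 20 genes and medians of 0.67 and 0.46, and interferon-γ response genes had medians of 0.22 and 1.15 (18 and 21 of 21 higher). With a hashtag ratio of 2 the long interferon-γ median was 0.03, with 13 of 21 higher, and the long type I median 0.27. Of all 12285 measured genes, 48.2% and 55.8% were higher. Of 9201 genes, 115 (1.25%) were at least 1.5-fold higher in both cohorts and 46 (0.5%) at least 1.5-fold lower, while 86 and 174 passed in opposite directions. edgeR called 0 of 11207 genes (0%), with 477 at an unadjusted P below 0.05, and DESeq2 called 3.

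The 10 genes with the largest shared higher level over all cells included genes of B, NK and T cells and interferon-inducible genes. Enrichment of such genes among the 10 was not tested. Cd79a and Ebf1, a B cell receptor subunit and a B lineage factor, stood out. Cd79a was 0.784 and 30.1 CPM (long) and 0.392 and 12.4 CPM (short), from 1 and 2 isotype UMIs, with ratios of 38.4 (6.72 to 1535) and 31.6 (8.57 to 264), and Ebf1 was 0.784 and 27.7 (long) and 1.96 and 12.9 (short) CPM. Klra1, an NK receptor gene of the Ly49 family, was 0.784 and 9.81 (long) and 1.37 and 9.57 (short) CPM, and Gzmc, a granzyme gene, 28.2 and 141 (long) and 96.5 and 178 (short) CPM. The interferon-inducible gene Ifi205 was 176 and 394 (long) and 99.5 and 239 (short) CPM, ratios of 2.23 (1.93 to 2.59) and 2.41 (2.19 to 2.65). Trbc1, a T cell receptor β constant segment, was 21.96 and 53.6 (long) and 18.2 and 51.6 (short) CPM; it shares near-identical sequence with Trbc2, so its counts are uncertain. Among the genes with a shared lower level, Ccl22, a chemokine of mature dendritic cells, was 60.4 and 39.9 (long) and 38.4 and 6.47 (short) CPM, the neutrophil chemokine gene Cxcl3 51.8 and 8.76 (long) and 19.97 and 6.86 (short) CPM, and Tnfrsf4, which encodes the costimulatory receptor OX40, 87.8 and 53.97 (long) and 27.4 and 14.5 (short) CPM. Fkbp5 and Tsc22d3, targets of the glucocorticoid receptor, were also lower: Fkbp5 was 47.8 and 26.6 CPM (long) and 46.2 and 21.9 CPM (short), and Tsc22d3 133 and 83.8 (long) and 124 and 72.1 (short). Myc, a growth regulator, was 56.5 and 31.2 (long) and 28.2 and 15.8 (short) CPM. Enrichment of glucocorticoid targets or of any other group among these lower genes was not tested.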

How the data were processed

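The authors processed the reads with Cell Ranger 7.1.0 against mm10 and deposited filtered matrices of unnormalized UMI counts per gene and per hashtag, 1 pair for each cohort; the annotation release is not given in the sources used here. Cells were filtered and given an arm as described above. No doublet caller was run: the hashtag ratio was meant to leave out doublets between arms, its success was not tested, and doublets within an arm were not removed. UMI counts were summed per arm and gate and tested with edgeR 4.0.16 in R 4.3.3 (quasi-likelihood, TMM, filterByExpr, cohort as block, Benjamini-Hochberg threshold 0.05). DESeq2 1.42.0 and HTODemux (Seurat 5.3.0) served as alternatives, as did a fit with the arm of a further hashtag, and the edgeR script was tested on simulated data. In the long cohort HTODemux gave 1671 cells over the 4 arms of the main fit, the number that the paper states after its filters. The ratio rule gave 1728. Ratio intervals are exact conditional binomial intervals (scipy 1.17.1). Genes named by size were the 10 largest each way among genes with at least 100 UMIs and a ratio of 1.5 in both cohorts, ranked by the smaller log2 ratio of CPM plus 10; T cell receptor variable segments were left out. Members and gene lists were chosen with earlier results of these data known. Positions are from GENCODE vM21, promoters from RefSeq. The number of mice per arm is not given in the sources used here. Some genes are not reported here.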

Additional observations from a re-analysis of the deposited data

Results flagged for a closer look

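These results had opposite directions in the cohorts, and the difference between cohorts was not tested, since each cohort held 1 isotype and 1 anti–PD-1 sample. The T gate share with anti–PD-1 minus that with isotype was -15.9 points in the long cohort and 7.23 points in the short cohort. The share of CD8 cells in the T gate differed by -11.6 points (long) and 20.02 points (short), but with a hashtag ratio of 5 both intervals included 0. The median log2 ratio of regulatory T cell genes in the T gate was 0.26 after 2 weeks and -1.55 after 1 week. In the myeloid gate it was -0.16 and then 0.20 for PD-1 ligands and B7 molecules, and 0.61 and then -0.25 for cell cycle genes.

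The hashtag tables also held a hashtag named anti-PD1-MIF-DDT, which entered none of the reported comparisons; with its arm added to the edgeR fit, 8 genes were called in the T gate and 0 in the myeloid gate and over all cells. It was the arm of 325 cells after 2 weeks and of 1071 cells after 1 week of treatment.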

How the results depend on the processing

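The T gate share kept its direction in each cohort under all alternatives run. The long difference was -25.8 points with a hashtag ratio of 5, -9.15 with a ratio of 2 and -8.51 with HTODemux calls. With a Lyz2 minimum of 1 the long myeloid share differed by 8.42 points. It differed by -6.89 points with a hashtag ratio of 2, -6.93 with HTODemux calls and 5.85 with a ratio of 5. In the T gate, where 12 genes were called, the count was 6 in CD8 T cells only, 3 with DESeq2, 3 with HTODemux, 0 with a hashtag ratio of 5, 0 without the cohort block, 41 with no filter on low counts, 24 with only the 4 isotype and anti–PD-1 sums, 4 without MHC class II-high cells, and between 19 and 30 when 1 pair was left out. Over all cells, where none was called, it was 3 with DESeq2, 37 with no filter and 6 to 9 with 1 pair left out. In the myeloid gate it was 2 with a ratio of 5, 89 with no filter, 45 with the 4 sums and 0 to 52 with 1 pair left out. In each fit that left out a pair, the remaining samples of an arm were assumed to vary like the other arms.

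Of the single-gene log2 fold changes, 102 were classed as the same, 40 as weaker, 7 as stronger and none as reversed. Of the counts of genes past the threshold, 20 were classed as the same and 18 as moved. Of the list medians, 408 moved by no more than the interquartile range of their own list, 7 by more, and 3 with a size of at least 0.25 reversed. In Ly6c2-high cells of the short cohort the C1q and lipid-associated median was 0.11 and the MHC class II median 0.66. In CD8 T cells of the short cohort the cell cycle median was 0.66 and the costimulatory median 0.47. In the long myeloid gate HTODemux gave -0.25 for IL-1 and TNF genes, 0.41 for MHC class II and -0.16 for glycolysis, and a ratio of 2 gave -0.12 and 0.37 for the first 2. A pseudocount of 1 CPM gave 1.24 for naive and memory genes in the long T gate. Within the interquartile range, but large, were the long myeloid cell cycle median at a pseudocount of 1 CPM (1.56), the long myeloid type I interferon median at a ratio of 2 (0.20; over all cells 0.27), the long monocyte median at a ratio of 2 (-0.48) and the long C1q median in Ly6c2-high cells (-0.54). The causes were not tested. HTODemux, the CD8, class II and Ly6c2 restrictions were chosen after seeing the data. T gate values of the isotype arms rest on 33 cells (short) and 57 cells (long), and CD8 T cell values on 16 cells (short) and 54 cells (long).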
